A study of Mus musculus with 8 samples.

Results

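Immunoglobulin genes were followed in RNA of primary colonic intestinal epithelial cells (IECs). The genes were 9 of the 437 rows that 2 deposited tables hold, 7 of 128 on day 7 and 2 of 309 on day 0. They were chosen by name from tables that list only genes whose level differed between the genotypes in the authors' own test (log2 fold change beyond 1 either way, adjusted p under 0.05). Genes just outside these thresholds are thus not seen. The choice means that the difference of these genes between genotypes was fixed beforehand, and it is given as a description without a test. On day 7 they were the constant gene *Ighg2c*, the heavy chain variable genes *Ighv1-18* and *Ighv1-34*, and the kappa variable genes *Igkv4-61*, *Igkv4-74*, *Igkv10-96* and *Igkv12-46*. On day 0 they were the constant genes *Ighd* and *Ighg2b*. None of the 9 was listed on both days.

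All mice carried floxed *Efhd2* alleles. In Efhd2f/f Vil1cre/+ mice, Cre driven by the villin promoter, which is active in the intestinal epithelium, removes the second exon of *Efhd2*, and Efhd2f/f mice without Cre were the controls. Both genotypes were sampled untreated (day 0) and on day 7, when dextran sulfate sodium (DSS), a polymer that injures the colon epithelium, had been given in the drinking water. The study used adult mice of both sexes, and the labels give neither the age nor the sex of a library. The 8 libraries formed 4 groups of 2, named here by the numbers of the tables, 65 and 71 (Efhd2f/f Vil1cre/+) and 67 and 68 (Efhd2f/f) on day 7, and 51 and 53 (Efhd2f/f Vil1cre/+) and 50 and 52 (Efhd2f/f) on day 0. The labels do not say whether the libraries of a group came from different mice, so the spread between them may be technical.

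Values are normalized read counts as the authors scaled them. The tables were scaled separately, so no level was compared between days. Where a value is given as 0, the table holds a number under 1e-06, which was set to 0. The total depth of the libraries is unknown. *Efhd2* itself was at 556 and 713 normalized counts in the Efhd2f/f Vil1cre/+ libraries of day 0 and at 2663 and 2686 in the Efhd2f/f libraries, and the day 7 table does not list it. Of 11 epithelial markers, only *Chga* was listed on day 0 and none on day 7, so the labelled cell type could not be checked on these tables.

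An antibody consists of paired heavy and light chains. Each B cell joins 1 of many variable segments to short joining segments and expresses it together with a constant gene, and the constant gene of the heavy chain sets the isotype. Naive B cells carry IgM and IgD, and class switching replaces these by IgG, IgA or IgE. Plasma cells of the normal gut secrete mainly IgA, which epithelial cells carry into the lumen, while IgG is the main class of blood. *Ighg2c* is the IgG2 gene that C57BL/6 mice carry in place of *Ighg2a*. Immunoglobulin transcripts come from B lineage cells, and the IECs were released by shaking in EDTA and strained, with no cell sort. In bulk RNA, fewer cells of a type and less RNA per cell cannot be told apart.

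All 9 genes lie on the minus strand of GRCm38, and the coordinates in the tables equal those of GENCODE release M21 for each. The kappa variable genes lie on chromosome 6, *Igkv10-96* from 68631963 to 68632442, *Igkv4-74* from 69184826 to 69185397, *Igkv4-61* from 69416893 to 69417455 and *Igkv12-46* from 69764523 to 69765022. Their starts span 1133 kb, and they are 4 of 100 annotated kappa variable genes. The heavy chain genes lie on chromosome 12, *Ighv1-18* from 114682632 to 114683065 and *Ighv1-34* from 114851190 to 114851660, 2 of 113 annotated heavy variable genes. *Ighg2c* (113285325 to 113288932), *Ighg2b* (113302965 to 113307933) and *Ighd* (113406604 to 113416324) are constant genes. In the order of the 8 heavy constant genes from the variable side, *Ighd* is number 2, *Ighg2b* number 5 and *Ighg2c* number 6.

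The end of the variable exon is where a germline segment is cut and joined, and it shows how alike the counted segments are. The last 60 bases of exon 2 of each variable gene of day 7, from the GENCODE M21 transcripts (GRCm38), are given 5′ to 3′ on the coding strand, with the last in-frame cysteine codon in capitals.

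Ighv1-18: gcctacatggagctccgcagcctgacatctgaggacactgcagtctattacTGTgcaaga

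Ighv1-34: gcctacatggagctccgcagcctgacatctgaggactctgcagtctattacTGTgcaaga

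Igkv4-61: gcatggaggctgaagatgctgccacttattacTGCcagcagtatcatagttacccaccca

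Igkv4-74: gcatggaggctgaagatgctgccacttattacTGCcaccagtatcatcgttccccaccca

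Igkv10-96: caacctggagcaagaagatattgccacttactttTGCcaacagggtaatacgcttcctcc

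Igkv12-46: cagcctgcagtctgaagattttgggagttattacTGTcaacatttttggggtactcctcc

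*Ighv1-18* and *Ighv1-34* were 96.0% identical over 351 aligned bases of their transcripts, and *Igkv4-61* and *Igkv4-74* were 95.3% identical over 382. The other pairs of kappa genes of day 7 were between 62.3% and 69.5% identical. Of all 50-base windows of a transcript, the share that also occurred in a transcript of another gene was 51.95% for *Igkv4-61*, 48.1% for *Igkv4-74*, 45.7% for *Ighv1-34*, 35.8% for *Ighv1-18*, 32.6% for *Igkv10-96* and 9.76% for *Igkv12-46*. How the authors' counting placed reads that match several variable genes is not given in the sources used here, so the split of reads between these genes is uncertain. The constant genes shared less, with 6.01% for *Ighg2c*, all of it with *Ighg2b*, 4.33% for *Ighg2b* and 0% for *Ighd*.

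The IgG subclasses differ most plainly in the hinge, a short exon between the arms and the stem of the antibody. The hinge exons of *Ighg2c* (exon 2, 63 bases, chr12:113288263-113288325) and *Ighg2b* (exon 2, 66 bases, chr12:113307261-113307326) are shown in the same way, with in-frame cysteine codons in capitals, since these cysteines can link the heavy chains.

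Ighg2c hinge: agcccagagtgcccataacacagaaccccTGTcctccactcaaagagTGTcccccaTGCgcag

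Ighg2b hinge: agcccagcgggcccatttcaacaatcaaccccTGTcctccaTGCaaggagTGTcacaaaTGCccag

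The hinges were 81.0% identical over 63 aligned bases, with 3 cysteine codons in *Ighg2c* and 4 in *Ighg2b*. The transcripts were 87.8% identical over 1214 aligned bases. These were all of the *Ighg2c* transcript but only a part of the 2566 bases of *Ighg2b*. Most 50-base windows of either constant gene were thus found in no other gene.

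On day 7, all 7 immunoglobulin genes were higher in Efhd2f/f Vil1cre/+ IECs, with both libraries above both Efhd2f/f libraries. This held for 90.6% of all genes listed that day (116 of 128), so nothing about the immunoglobulin genes is read from it. Their summed level was 480 and 867 normalized counts in libraries 65 and 71, against 64.7 and 64.3 in libraries 67 and 68. The means were 673 ± 273 and 64.5 ± 0.319 (SD, n = 2 each), a 10.4-fold ratio. On the log2(normalized count + 1) scale, which understates the change of low genes, the sum differed by 3.30 (standard error 0.43). The Efhd2f/f sums were nearly equal, although single genes differed between those libraries by up to 3.33-fold.

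**Figure D1:**
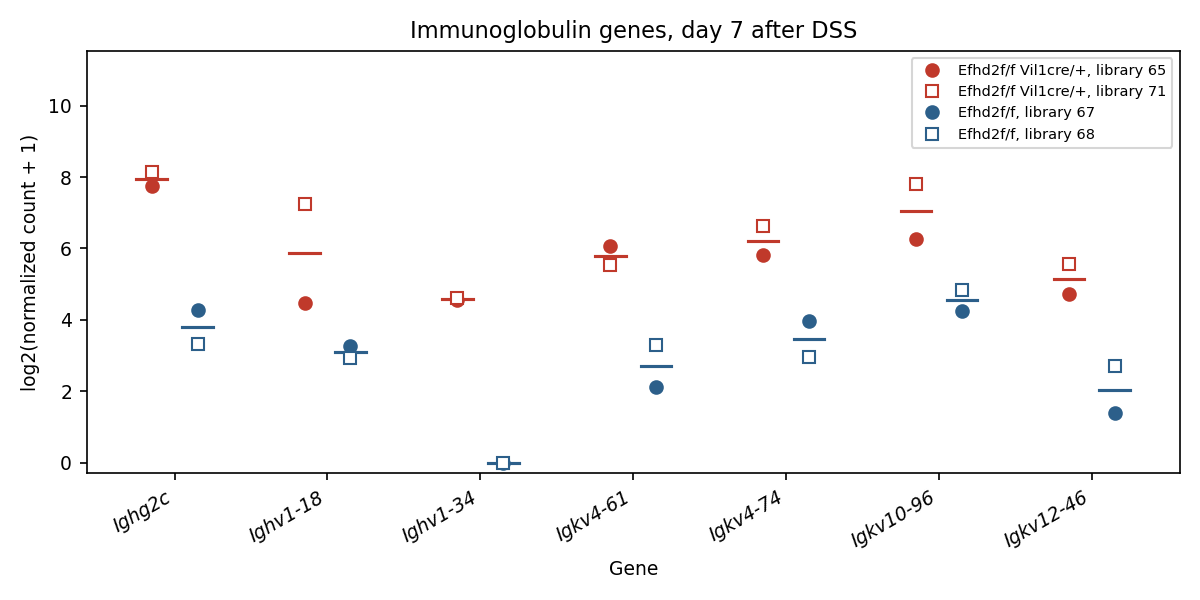
Level of the 7 immunoglobulin genes in each library of day 7, as log2(normalized count + 1), with a bar at the mean of each genotype. Both Efhd2f/f Vil1cre/+ libraries (red) lie above both Efhd2f/f libraries (blue) for every gene, and the red libraries lie furthest apart for *Ighv1-18*, at 21.4 and 152 normalized counts.

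*Ighg2c*, the constant gene of IgG2c, was at 214 and 279 normalized counts in the Efhd2f/f Vil1cre/+ libraries and at 18.2 and 8.96 in the Efhd2f/f libraries. The lower Efhd2f/f Vil1cre/+ library was 11.7 times the higher Efhd2f/f library, the widest gap among the genes with a value above 0 in every library. The means were 246 ± 46.5 and 13.6 ± 6.57 (SD, n = 2 each), an 18.1-fold ratio. The log2 difference was 4.15 (standard error 0.51), and it ranged from 3.67 to 4.62 when single libraries were omitted. *Ighg2c* is the single constant gene listed on day 7. *Igha*, *Ighm* and *Igkc*, the constant genes of IgA, IgM and the kappa chain, are not among the genes listed on either day, so their levels were not analysed here.

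Of the heavy chain variable genes, which encode the antigen-binding end of the heavy chain, *Ighv1-34* was at 22.4 and 23.6 normalized counts in the Efhd2f/f Vil1cre/+ libraries and at 0 in both Efhd2f/f libraries. No ratio was computed for it. *Ighv1-18* was at 21.4 in library 65 and 152 in library 71, against 8.66 and 6.68 in the Efhd2f/f libraries. Its Efhd2f/f Vil1cre/+ libraries thus differed from each other by 7.10-fold, while those of *Ighv1-34* differed by 1.06-fold. The mean of *Ighv1-18* was 86.7 ± 92.3 against 7.67 ± 1.40 (SD, n = 2 each), and its log2 difference of 2.76 (standard error 1.40) was 1.38 without library 71 and 4.15 without library 65. The nearest libraries of the genotypes, 65 and 67, differed by 2.47-fold.

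The kappa variable genes encode the antigen-binding end of the light chain. *Igkv10-96* was at 76.3 and 223 normalized counts in libraries 65 and 71 and at 18.0 and 27.6 in libraries 67 and 68, a log2 difference of 2.49 (standard error 0.82). *Igkv4-74* was at 54.9 and 97.5 against 14.8 and 6.74, a log2 difference of 2.75 (standard error 0.66). *Igkv4-61* was at 66.1 and 45.2 against 3.35 and 8.79, a log2 difference of 3.09 (standard error 0.64). *Igkv4-61* was the exception among the 7 genes in being lower in library 71 than in library 65, at 0.684 of its level there. Of all 128 genes listed that day, 83 were higher in library 71 than in library 65. *Igkv12-46* was at 25.4 and 46.2 normalized counts against 1.64 and 5.47, a log2 difference of 3.09 (standard error 0.77), which was 2.45 without library 67 and 3.74 without library 68. No kappa gene overlapped between the genotypes, and the closest approach was that of *Igkv10-96*, whose lower Efhd2f/f Vil1cre/+ library was 2.76 times the higher Efhd2f/f library. Without library 71 the log2 difference of *Igkv10-96* was 1.73, and without library 65 it was 3.26.

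Levels of different genes were compared per kb of exon length, as normalized counts per kb. In the Efhd2f/f Vil1cre/+ libraries of day 7, *Igkv10-96* had the highest mean, at 417 (213 and 621), followed by *Ighv1-18* at 247, *Igkv4-74* at 194, *Ighg2c* at 186, *Igkv4-61* at 146, *Igkv12-46* at 95.0 and *Ighv1-34* at 59.3. The ranges of neighbours in this order overlapped for all but the last pair, so neighbours among the first 6 are not resolved by 2 libraries. Some genes further apart did not overlap. *Igkv10-96* lay above *Ighg2c*, *Igkv4-61* and *Igkv12-46*, and *Igkv4-74* and *Ighg2c* lay above *Igkv12-46*. *Ighv1-18* overlapped every other gene of the first 6. In the Efhd2f/f libraries *Igkv10-96* was again first, at 63.6 per kb, and its range did not overlap that of the next gene, *Igkv4-74* at 27.3. *Ighg2c* was at 10.3 per kb there, number 5 of the 7, with a range that overlapped those of both its neighbours, *Igkv4-61* and *Igkv12-46*.

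The shares within the immunoglobulin sum differed between libraries. *Ighg2c* made up 44.5% and 32.2% of the sum of the 7 genes in libraries 65 and 71, and 28.2% and 13.9% in libraries 67 and 68. The ranges of the genotypes did not overlap, but the 4.05 percentage points between libraries 71 and 67 were fewer than the 12.3 and 14.2 points between the libraries of each genotype. Set against the 4 kappa genes together, *Ighg2c* was at 0.959 and 0.678 times their sum in the Efhd2f/f Vil1cre/+ libraries and at 0.482 and 0.184 times in the Efhd2f/f libraries. Here too, libraries 71 and 67 lay closer to each other than the libraries within each genotype did. Within the kappa genes, *Igkv10-96* held 34.3%, 54.1%, 47.7% and 56.8% in libraries 65, 71, 67 and 68, which overlapped between the genotypes. These shares use the summed counts of the listed genes alone and not all immunoglobulin reads. Neither the shares nor the ratio to the kappa genes are scaled by length. *Ighg2c*, at 1326 bases, is longer than the variable genes, at 351 to 394 bases, and so weighs more in them.

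**Figure D2:**
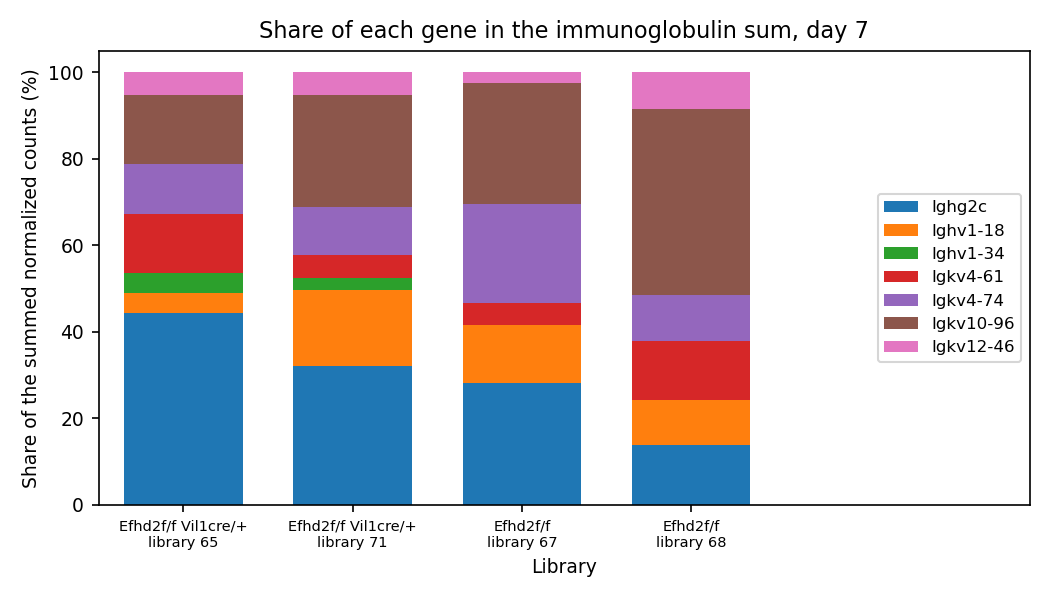
Share of each of the 7 immunoglobulin genes in their summed normalized counts, not scaled by gene length (y axis, percent), in the 4 libraries of day 7 (x axis). *Ighg2c* ranges from 44.5% in library 65 to 13.9% in library 68, and *Ighv1-18* from 4.46% in library 65 to 17.5% in library 71.

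Within the day 7 table, the median log2 difference of the 6 immunoglobulin genes with a ratio was 2.93 (2.49 to 4.15), against 2.56 for the 111 higher genes with a value above 0 in both genotypes. Ranked by this difference among the 121 genes with a value above 0 in both genotypes, *Ighg2c* was number 11, *Igkv12-46* number 26 and *Igkv10-96* number 60. They were low genes, with a median level of 43.5 normalized counts over the 4 libraries against 422 for all listed genes. Giving every library the same total over these genes moved the median log2 difference of all 128 by -2.41. It left *Ighg2c*, *Ighv1-34*, *Igkv4-61* and *Igkv12-46* without overlap, and *Ighv1-18*, *Igkv4-74* and *Igkv10-96* then overlapped between the genotypes. *Ighv1-34* was at 0 in both Efhd2f/f libraries, so no scaling could make it overlap. Under this scaling 25.8% of the listed genes (33 of 128) were higher without overlap, and nothing about the immunoglobulin genes is read from the count.

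**Figure D3:**
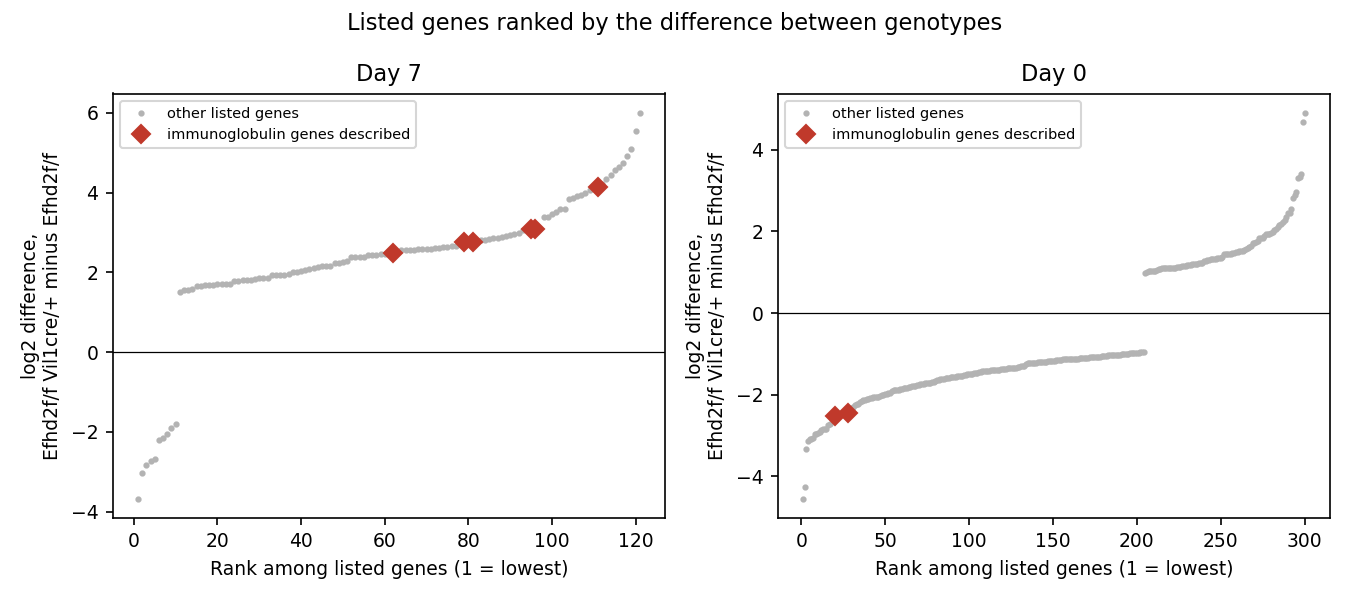
Listed genes of day 7 (left) and day 0 (right) ranked by the log2 difference of Efhd2f/f Vil1cre/+ minus Efhd2f/f IECs (y axis), leaving out genes at 0 throughout a genotype. The immunoglobulin genes (red diamonds) lie between 2.49 and 4.15 on day 7 and at -2.53 and -2.44 on day 0, inside the range of the other listed genes (grey).

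The genes whose profile over the 4 libraries of day 7 was nearest to the mean profile of the immunoglobulin genes were *Bcl2l15*, *C1rl* and *Mmp19*. Their distances, on centred log2(normalized count + 1) values, were 0.231, 0.551 and 0.674, against a median of 1.56 over 119 genes. *Bcl2l15*, a gene of the Bcl-2 family, was at 44.8 and 79.1 normalized counts in libraries 65 and 71 and at 5.19 and 4.45 in libraries 67 and 68.

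Of 32 B and plasma cell markers, including *Cd79a*, *Ms4a1*, *Jchain* and *Mzb1*, none was listed on day 7, and neither was any of 16 T and NK cell markers. Of 24 genes for immunoglobulin receptors, transport and B cell attraction, 2 were listed and both were higher. So were 90.6% of all genes listed that day (116 of 128). *Fcgr3*, the gene of a low-affinity receptor for IgG, was at 754 and 604 normalized counts in the Efhd2f/f Vil1cre/+ libraries and at 138 and 179 in the Efhd2f/f libraries. *Fcer1g*, which encodes the signaling chain shared by several of these receptors, was at 958 and 596 against 203 and 214. *Pigr*, which carries IgA across the epithelium, is not among the listed genes.

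Listed markers of red blood cells, neutrophils, monocytes and macrophages were also higher on day 7. So were 90.6% of all genes listed that day (116 of 128), and nothing is read from the shared direction. Of 5 red blood cell markers, 4 were listed and higher, with summed levels of 4139 and 3992 normalized counts in the Efhd2f/f Vil1cre/+ libraries and 562 and 1344 in the Efhd2f/f libraries. Of 15 neutrophil markers, 10 were listed and higher, with sums of 21032 and 66044 against 4126 and 6965. Of 13 monocyte and macrophage markers, 3 were listed and higher, with sums of 14533 and 13595 against 2625 and 4751. *Cd14* made up most of each sum, at 11964 and 13046 normalized counts in libraries 65 and 71. The other listed markers were lower in library 71 than in library 65, *Ccl3* at 452 against 1815 and *Spp1* at 97.6 against 755. The ratio of the means was 4.27 for red blood cells, 7.85 for neutrophils and 3.81 for monocytes and macrophages, beside 10.4 for the immunoglobulin genes. The neutrophil sum was 3.14-fold and the immunoglobulin sum 1.8-fold higher in library 71 than in library 65, whereas the red cell sum was 0.964 of that in library 65. The sum over all listed genes was 411504 in library 65 and 614168 in library 71. The part of blood or infiltrating cells in the immunoglobulin values was not tested.

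**Figure D4:**
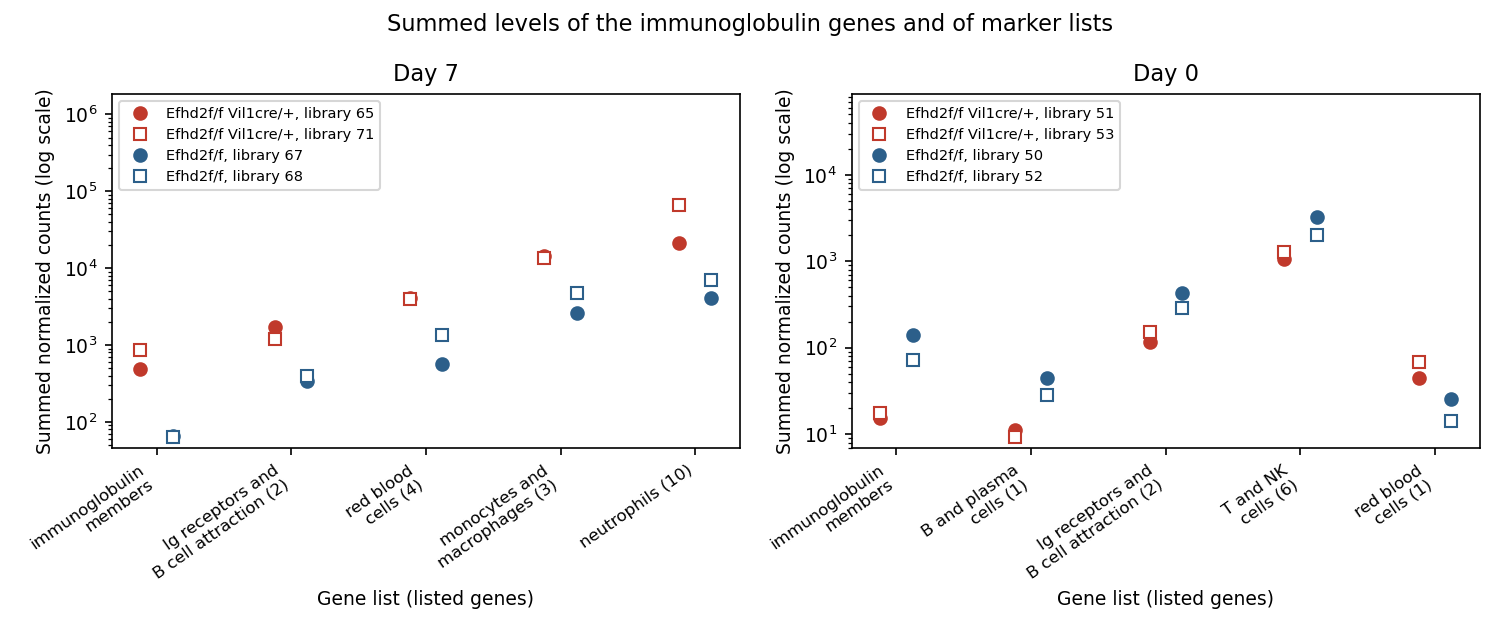
Summed normalized counts per library (log scale) of the immunoglobulin genes described and of the listed genes of each marker list, with the number of listed genes in brackets, on day 7 (left) and day 0 (right). On day 7 every sum is higher in Efhd2f/f Vil1cre/+ libraries (red), and on day 0 those of immunoglobulin, B and plasma cell, receptor, and T and NK cell genes are lower in red.

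On day 0, without DSS, *Ighd* and *Ighg2b* were lower in Efhd2f/f Vil1cre/+ IECs, with both libraries below both Efhd2f/f libraries. This was so for 67% of all genes listed that day (207 of 309), and nothing about these 2 genes is read from it. *Ighd*, the constant gene of IgD, which marks naive B cells, was at 11.1 and 9.24 normalized counts in libraries 51 and 53 and at 78.5 and 51.3 in libraries 50 and 52. Its means were 10.2 ± 1.35 and 64.9 ± 19.2 (SD, n = 2 each), a log2 difference of -2.53 (standard error 0.33). The lower Efhd2f/f library was 4.60 times the higher Efhd2f/f Vil1cre/+ library. Omitting single libraries gave log2 differences of *Ighd* from -2.83 to -2.23.

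*Ighg2b*, the constant gene of IgG2b, was at 4.07 and 8.41 normalized counts in libraries 51 and 53 and at 62.8 and 21.0 in libraries 50 and 52. The Efhd2f/f libraries differed from each other by 2.99-fold, and the lower of them was 2.50 times the higher Efhd2f/f Vil1cre/+ library. Its log2 difference was -2.44 (standard error 0.89), and it was -1.67 without library 50 and -3.21 without library 52. The ratio of *Ighd* to *Ighg2b* counts was 2.74 and 1.10 in libraries 51 and 53 and 1.25 and 2.44 in libraries 50 and 52, so it overlapped between the genotypes. Per kb, *Ighd* was above *Ighg2b* in both genotypes without overlap, at 5.36 against 2.33 in Efhd2f/f Vil1cre/+ and 34.1 against 15.7 in Efhd2f/f IECs. The median log2 difference of these 2 genes was -2.49, against -1.48 for the 204 lower genes of day 0 with a value above 0 in both genotypes.

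**Figure D5:**
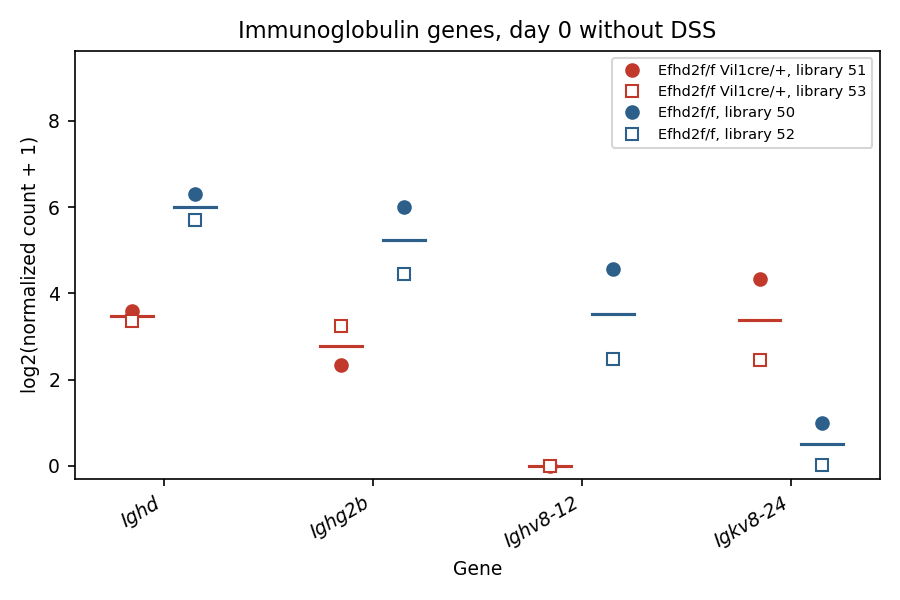
Level of the 4 immunoglobulin genes listed on day 0 in each library, as log2(normalized count + 1), with a bar at the mean of each genotype. *Ighd*, *Ighg2b* and *Ighv8-12* are lower in Efhd2f/f Vil1cre/+ libraries (red) than in Efhd2f/f libraries (blue), and *Igkv8-24* is higher, at 19.2 and 4.45 against 0.983 and 0.0102 normalized counts.

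The other immunoglobulin genes listed on day 0 were the variable genes *Ighv8-12* and *Igkv8-24*. *Ighv8-12* was at 0 in both Efhd2f/f Vil1cre/+ libraries and at 22.6 and 4.59 normalized counts in the Efhd2f/f libraries. *Igkv8-24* went the other way, at 19.2 and 4.45 in the Efhd2f/f Vil1cre/+ libraries and 0.983 and 0.0102 in the Efhd2f/f libraries. How the authors' scaling gives a value as far below 1 as 0.0102 is not stated, so the lowest values are uncertain. Immunoglobulin genes of day 0 were therefore not all lower. The sum of the 4 genes was 34.4 and 22.1 against 165 and 76.9.

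Of the 32 B and plasma cell markers, *Pou2af1*, a B cell coactivator of octamer promoters, was the single one listed on day 0. It was at 11.1 and 9.24 normalized counts in the Efhd2f/f Vil1cre/+ libraries and at 44.1 and 28.4 in the Efhd2f/f libraries, a log2 difference of -1.71. Of the receptor and B cell attraction genes, *Fcer1g* was at 28.4 and 61.5 against 191 and 149, and *Ccr9*, a homing receptor of gut lymphocytes, at 88.2 and 90.9 against 236 and 137. Of the 16 T and NK cell markers, 6 were listed and lower. So were 67% of all genes listed that day (207 of 309), and nothing is read from this count. The 6 markers summed to 1077 and 1277 normalized counts against 3250 and 1991, with a median log2 difference of -1.11. *Alas2*, the listed red blood cell marker, was higher, at 44.6 and 68.8 against 25.5 and 14.3. The listed monocyte and macrophage marker, *Spp1*, was lower, at 1.01 and 0 against 9.80 and 8.71, and so was *Chga*, an enteroendocrine marker, at 1843 and 2363 against 5510 and 4024. Whether the libraries of day 0 held fewer lymphocytes was not tested.

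The profiles nearest to that of *Ighd* and *Ighg2b* on day 0 were those of the processed pseudogene *Gm44420*, of *Ppy*, the gene of pancreatic polypeptide, and of *Rab33a*, a small GTPase gene. Their distances were 0.382, 0.448 and 0.587, against a median of 1.52 over 294 genes. *Ppy* was at 10.1 and 8.31 normalized counts in libraries 51 and 53 and at 86.4 and 34.1 in libraries 50 and 52.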

How the data were processed

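RNA of primary colonic IECs was sequenced in 8 libraries, 2 for each genotype and day. The deposited signal is a normalized read count per gene, in a table for each day. The authors' scaling method is not given in the sources used here. Values were not whole and had no common step, and depth is unknown. The submitters' processing notes name CASAVA 1.8, fastp, HISAT2 2.0.5, featureCounts 1.5.0-p3, DESeq2 1.20.0 and GRCm38. The tables hold only genes the authors selected (absolute log2 fold change above 1, adjusted p under 0.05), with gene length and other annotation. The columns of the authors' means, fold changes and p-values were not used for any value here. The column names number the libraries differently from the labels, so columns were mapped to groups only.

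Values under 1e-06 were set to 0 (14 on day 7, 25 on day 0). Differences were computed on log2(value + 1), a pseudocount of 1, as Efhd2f/f Vil1cre/+ minus Efhd2f/f means, with the standard error from the 2 libraries of each genotype. No test was run, because the genes were selected on the same contrast. Code was tested on simulated data. Named genes were all members, all other listed immunoglobulin genes, listed genes of the B cell and receptor lists, and the 3 nearest profiles per day (Euclidean distance, mean of at least 10). Members and lists were chosen with earlier results of these data known. Sequences, exons and 50-base windows came from GENCODE M21. Python 3.11.15, pandas 2.3.3, numpy 2.4.6, Biopython 1.88 and matplotlib 3.10.9 were used. Alternatives were pseudocounts of 0.1 and 10, a common total per library over its table, a minimum mean of 10, constant or variable genes alone, lengths from the annotation, and each library left out.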

Additional observations from a re-analysis of the deposited data

How the results depend on the processing

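The log2 difference of the summed immunoglobulin genes was 3.30 on day 7 and -2.55 on day 0. Omitting single libraries gave 2.88 to 3.73 on day 7 and -3.03 to -2.08 on day 0. The number of genes without overlap cannot fall when a library is omitted, so nothing is read from its staying at 7 and 2. With the libraries of a day scaled to a common total of listed genes the differences were 0.89 and -3.15. Under it 4 of the 7 genes of day 7 did not overlap, beside 33 of all 128 listed genes (25.8%). *Ighv1-34* was among these 4 and, being at 0 in both Efhd2f/f libraries, could not overlap under any scaling. On day 0 both genes stayed without overlap, beside 207 of 309 (67%). That outcome was fixed, because the scaling lowered both Efhd2f/f Vil1cre/+ libraries of day 0 against both Efhd2f/f libraries. The total is taken over genes selected for differing between the genotypes, so on day 7 this scaling takes out a part of that difference itself. It moves the median of all listed genes by -2.41 on day 7 and -0.61 on day 0, and nothing is read from the change of the sums. *Ighg2c* alone gave 4.15 on day 7. Pseudocounts of 0.1 and 10 moved both sums by less than the spread between libraries, as did the variable genes alone on day 7, where the difference was 2.94. Day 0 had no variable gene to sum, and the minimum mean removed no gene on either day. For single genes, omitting a library or changing the pseudocount cannot turn a direction where the genotypes do not overlap. Nothing is read from the directions under those settings. The common total could have turned one on day 7, and it turned none of the genes with a ratio. *Ighv1-34*, at 0 in both Efhd2f/f libraries, was left out of these values. A pseudocount of 10 gave 1.73 to 3.46 on day 7, and the common total 0.12 to 1.8. Lengths from the annotation left the levels per kb as they were. With 2 libraries per group, unknown depth and low values, small differences cannot be resolved. No paired analysis was possible because the columns carry no replicate numbers of the labels.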
